A study of Homo sapiens with 19 samples.

Results

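The transcription factors that set up the melanocyte lineage, MITF, SOX10, PAX3, TFAP2A and LEF1, were followed together with the relatives of MITF in the MiT/TFE family, TFEB, TFE3 and TFEC. These 8 genes were chosen by name and matched by symbol to Ensembl identifiers among the 44717 gene identifiers listed for any of 19 RNA-seq samples. Human 501Mel melanoma cells were infected with lentiviral vectors expressing a scramble control shRNA labelled shSCR1 or an shRNA against BRG1 (shBRG1), with 3 replicates of each, or with a scramble control labelled shSCR2 or an shRNA against MITF (shMITF), with 2 replicates of each. Hermes 3A cells, an untransformed melanocyte line, were given a scramble control labelled shSCR, shBRG1 or shMITF (3 replicates per group), in medium that also held TPA, cholera toxin, stem cell factor and endothelin-1, which the 501Mel medium did not. Each gene was targeted with a single construct, so that an effect of the construct and loss of its target cannot be told apart, and the labels do not say whether replicates were separate infections, so that p-values measure the spread between these samples, which may be technical.

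MITF is a basic helix-loop-helix leucine zipper factor that activates pigmentation genes and is regarded as the master regulator of melanocytes. TFEB, TFE3 and TFEC share its DNA-binding domain, bind E-box sequences as homodimers or heterodimers with MITF, and TFEB and TFE3 are best known for inducing lysosome and autophagy genes when nutrient signalling through mTORC1 is low. SOX10, PAX3, LEF1 with β-catenin, and CREB family factors act through the melanocyte-specific promoter of MITF, TFAP2A works with MITF at melanocyte regulatory elements, and BRG1, encoded by SMARCA4, is the ATPase of SWI/SNF chromatin remodelling complexes.

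Between 29158502 and 78857900 reads were counted on genes per sample. SMARCA4 ranged from 178 to 193 CPM (the read count on a common scale that corrects for library size) with shSCR1 and from 35.8 to 40.6 CPM with shBRG1 in 501Mel cells, and from 227 to 254 CPM with shSCR and from 44.4 to 47.5 CPM with shBRG1 in Hermes 3A cells. Its log2 fold change was -2.36 ± 0.054 (SE) in 501Mel cells and -2.38 ± 0.048 in Hermes 3A cells. Both lines expressed the melanocyte markers MLANA, PMEL, TYR, DCT and TYRP1, whose summed level was 28280 to 30365 CPM with shSCR1, 19087 to 21383 CPM with shSCR2 and 61665 to 62799 CPM with shSCR in Hermes 3A cells, and at least 2823 CPM in every knockdown sample. DCT was low in Hermes 3A cells, at 20.4 to 23.5 CPM with shSCR. Markers of endothelial cells and of leukocytes each summed to at most 1.57 CPM in any sample. The endothelial sum was of CDH5 and VWF, since no counts are listed for PECAM1. Those of keratinocytes summed to between 27.1 and 64.6 CPM, the highest in the Hermes 3A shMITF samples. KRT10 gave nearly all of that sum, while KRT5, KRT14 and KRT1 were each at or under 0.154 CPM in every sample. In 501Mel cells the 5 fibroblast markers summed to 3.56 to 4.94 CPM with shSCR1 and 15.8 to 19.2 CPM with shBRG1. COL1A1 and LUM made up most of those sums. With shSCR2 the sum was 7.69 to 8.90 CPM and with shMITF 7.38 to 13.8 CPM, ranges that overlapped. In Hermes 3A cells the fibroblast markers summed to 71.4 to 80.1 CPM with shSCR, 139 to 148 CPM with shBRG1 and 113 to 218 CPM with shMITF. Nearly all of this came from COL1A2. LUM was lower there with shBRG1, at 3.40 to 3.85 CPM against 5.91 to 7.37 CPM with shSCR. DCN stayed at or under 0.438 CPM in every sample. The part of these other markers in the results was not tested. Replicates were closest in the shSCR1 and shBRG1 groups of 501Mel cells (a biological coefficient of variation of 4.56% and 4.65%) and most spread in the Hermes 3A shMITF group (28.6%), which limits what that comparison can show.

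The genes lie on different chromosomes except for TFEB and TFAP2A. In GENCODE 29 on GRCh38, MITF (ENSG00000187098) spans chr3:69739435-69968337 on the plus strand, and the others lie on the minus strand: TFEB (ENSG00000112561) at chr6:41683978-41736259, TFE3 (ENSG00000068323) at chrX:49028726-49043486, TFEC (ENSG00000105967) at chr7:115935148-116159896, SOX10 (ENSG00000100146) at chr22:37970686-37987422, PAX3 (ENSG00000135903) at chr2:222199888-222298996, TFAP2A (ENSG00000137203) at chr6:10393186-10419659 and LEF1 (ENSG00000138795) at chr4:108047545-108168956. Genes on the opposite strand share exon bases with SOX10 (POLR2F, 89 bases), LEF1 (LEF1-AS1, 279 bases) and TFAP2A (TFAP2A-AS1, 438 bases). TFAP2A-AS2, for which no counts are listed, also lies opposite to TFAP2A and shares 941 exon bases with it. The counting is not stated to use strand, so that reads from these shared bases cannot be told apart. The counts listed for LEF1-AS1 ranged from 5 to 301 and for TFAP2A-AS1 from 109 to 780, against at least 1335 for LEF1 and 5451 for TFAP2A in any sample, while POLR2F had 1930 to 7563 counts and SOX10 at least 4823.

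MITF has several promoters, and the counts sum over its isoforms. The 250 bases before 3 of its start sites in RefSeq (GRCh38.p14, plus strand) are shown because the upstream factors followed here act on the last of them, the start of the melanocyte-specific isoform. Capitals mark matches to 7 motifs searched on both strands: the E-box CACGTG, the M-box core CATGTG, the SOX motifs ACAAAG and ACAATG, the cyclic AMP response element TGACGTCA, the TCF/LEF motif CTTTGA and the AP-2 motif GCCNNNGGC.
chr3:69739214-69739463: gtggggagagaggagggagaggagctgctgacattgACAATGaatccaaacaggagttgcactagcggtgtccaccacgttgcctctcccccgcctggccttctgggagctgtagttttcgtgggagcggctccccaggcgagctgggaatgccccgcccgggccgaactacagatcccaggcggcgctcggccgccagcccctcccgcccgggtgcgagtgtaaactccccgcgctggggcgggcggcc
chr3:69763561-69763810: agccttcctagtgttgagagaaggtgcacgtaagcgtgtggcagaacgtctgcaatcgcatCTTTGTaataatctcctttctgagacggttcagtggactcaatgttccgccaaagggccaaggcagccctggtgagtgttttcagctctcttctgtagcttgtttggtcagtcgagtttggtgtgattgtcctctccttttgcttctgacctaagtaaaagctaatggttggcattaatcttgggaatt
chr3:69936342-69936591: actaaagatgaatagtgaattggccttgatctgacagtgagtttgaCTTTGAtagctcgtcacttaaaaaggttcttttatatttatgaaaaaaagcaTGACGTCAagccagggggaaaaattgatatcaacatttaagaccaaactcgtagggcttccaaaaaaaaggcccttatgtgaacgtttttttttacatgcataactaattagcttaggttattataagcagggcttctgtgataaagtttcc

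The melanocyte-specific start holds TGACGTCA at bases -152 to -145 and CTTTGA at -204 to -199 from the start site. The other MITF windows each hold 1 SOX motif, ACAATG at -214 to -209 and the reverse complement of ACAAAG at -189 to -184. Only exact letters within these windows were searched, and no PAX3 motif was among them. The lack of a SOX match at the melanocyte-specific start therefore does not show that SOX10 has no site there. Over the full windows, which run 250 bases before to 50 bases after a start, TGACGTCA occurs in 1.85% of the 35116 human windows in the table, CTTTGA in 12.9%, ACAAAG in 16.1%, ACAATG in 10.8%, GCCNNNGGC in 23.2%, CATGTG in 11.1% and CACGTG in 7.26%. Windows were found for 7 of the 8 genes, 13 in all. Beside MITF, matches were found at 1 TFEB start (GCCNNNGGC) and 1 TFEC start (ACAATG). The matches are letters in these windows and not binding sites.

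The first question was how the factors differ between the melanoma line and the melanocyte line without a knockdown. Both lines expressed 7 of the 8 genes, and TFEB was the member that differed most between the lines. Levels are given as CPM with all 19 samples normalised together. TFEB had 33.7, 35.1 and 37.1 CPM with shSCR1 and 28.5 and 31.3 CPM with shSCR2 in 501Mel cells, but 1.69, 1.76 and 2.06 CPM with shSCR in Hermes 3A cells. No 501Mel sample overlapped the Hermes 3A range, and TFEB was 19.2-fold higher with shSCR1 (log2 difference 4.26 ± 0.11) and 16.4-fold higher with shSCR2 (4.04 ± 0.11) than with shSCR, with adjusted p of 1.5e-15 and 7.4e-15. In bulk RNA, fewer cells that express a gene and less of its RNA per cell cannot be told apart.

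The other factors differed by less, and most of these differences depended on which 501Mel scramble group was used. In all, 7 of 7 genes differed from Hermes 3A cells with shSCR1 (background 74.9% of all genes tested) and 3 of 7 with shSCR2 (background 72.5%). PAX3, which acts in neural crest and melanoblasts, was lower in 501Mel cells than in Hermes 3A cells with either control, by a log2 difference of -0.69 with shSCR1 and -1.11 with shSCR2, and so was TFAP2A, by -0.41 and -0.76. Both genes had separate ranges in the scramble samples of the lines: PAX3 was 57.9 to 95.6 CPM in 501Mel against 146 to 152 CPM in Hermes 3A cells, and TFAP2A 178 to 278 against 348 to 356 CPM. MITF was lower in 501Mel cells with shSCR1 (-0.89, adjusted p = 1.2e-08), but with shSCR2 its difference was 0.086 (95% interval -0.088 to 0.26). The same held for TFE3 (-0.33 with shSCR1 and -0.034 with shSCR2), SOX10 (-0.49 and -0.15) and LEF1 (-0.37 and 0.076), which passed the threshold with shSCR1 and not with shSCR2. With plain library sizes in place of TMM normalisation, TFE3, TFAP2A and LEF1 no longer passed with shSCR1 (-0.061, -0.15 and -0.098), MITF and LEF1 were higher in 501Mel cells with shSCR2 (0.21 and 0.20), and the TFE3 difference with shSCR2 turned to 0.091. That scaling moved the calls over all genes from 7823 higher and 7414 lower with shSCR1 to 9804 and 5728, and the median of all genes from 0.056 to 0.32, while with shSCR2 the median went from 0.048 to 0.17. Without shSCR2 replicate 1 MITF was also higher with shSCR2 (0.20, adjusted p = 0.019), and SOX10 was lower without shSCR2 replicate 2 (-0.23, adjusted p = 0.0037) or without shSCR replicate 3 (-0.20, adjusted p = 0.032).

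The scramble groups of 501Mel cells differed from each other in all 7 genes tested, where 66.8% of all genes tested differed, so that each knockdown was set against its own control. MITF had 513, 604 and 609 CPM with shSCR1 and 1047 and 1186 CPM with shSCR2, a log2 difference of 0.97 ± 0.081, nearly the size of its change with shMITF. LEF1 (0.44), SOX10 (0.34) and TFE3 (0.30) were also higher with shSCR2, whereas PAX3 (-0.42), TFAP2A (-0.34) and TFEB (-0.22) were lower. SMARCA4, the target of shBRG1, was likewise higher with shSCR2, at 325 and 328 CPM, a log2 difference from shSCR1 of 0.83 ± 0.064. The shSCR2 replicates themselves were apart in PAX3, at 57.9 and 79.4 CPM, and TFAP2A, at 178 and 238 CPM. Without shSCR2 replicate 1 the differences were -0.18 for PAX3 and -0.12 for TFAP2A, the latter no longer past the threshold (adjusted p = 0.12), and without replicate 2 they were -0.66 and -0.56. TFEB no longer passed without shSCR1 replicate 1 (-0.24) or 2 (-0.21) or without shSCR2 replicate 2 (-0.15). Whether the scramble groups differ in construct, date or library preparation is not given in the labels, and these cannot be told apart.

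**Figure D1:**
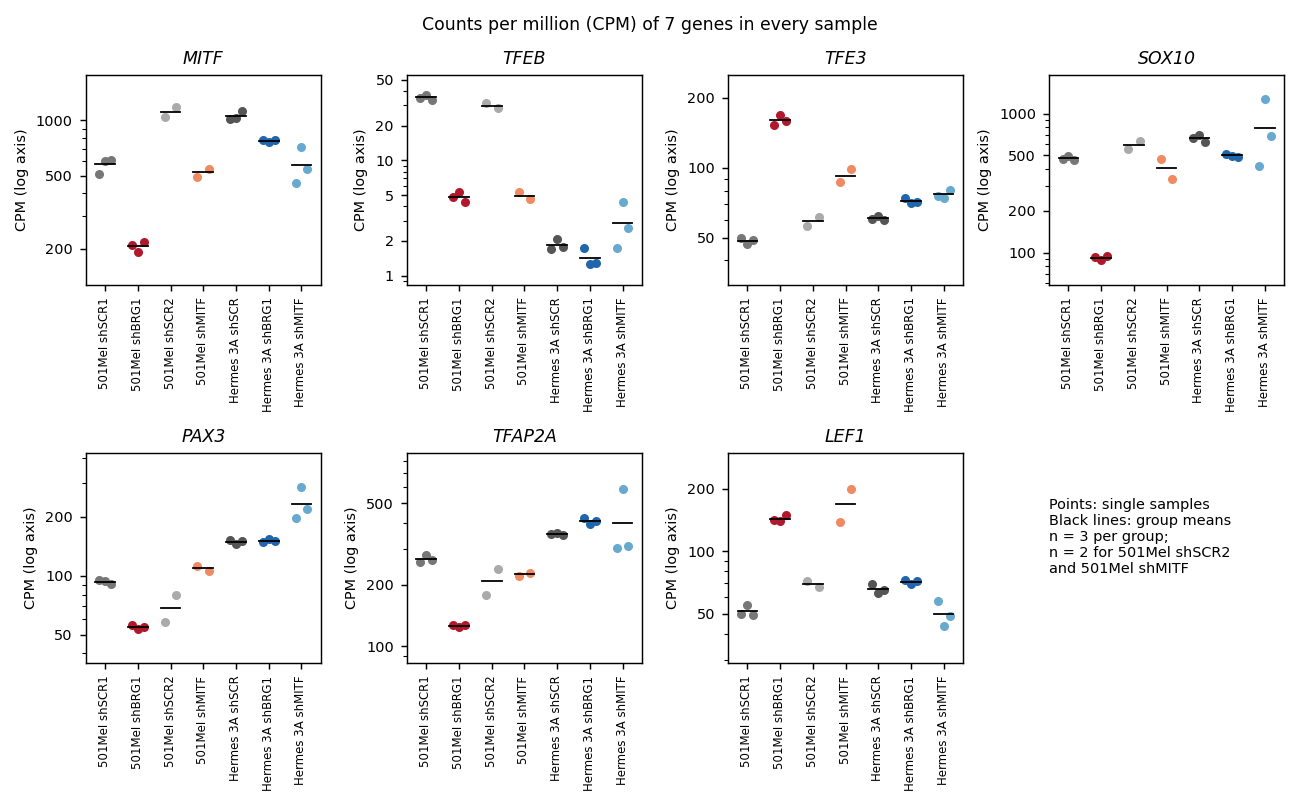
CPM (log axis) of the 7 genes tested, in each of the 19 samples by group, with points for samples and black lines for group means. TFEB stands at 28.5 to 37.1 CPM in the 501Mel scramble samples and at or under 5.28 CPM in every other group, while LEF1 and TFE3 stand highest in the 501Mel knockdown groups.

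The next question was how each factor responded to loss of BRG1 or of MITF. In 501Mel cells shBRG1 changed all 7 genes tested: MITF, TFEB, SOX10, PAX3 and TFAP2A fell, and TFE3 and LEF1 rose. All but PAX3 changed by more than 1 on the log2 scale. This stands beside 80.3% of all genes tested that passed adjusted p 0.05, 41.2% upward and 39.1% downward, and 39.1% that passed the fold threshold too. With shMITF in 501Mel cells 6 of the 7 genes passed against 20.6% of all genes (10.0% upward and 10.5% downward), and 3 of them (MITF, TFEB and LEF1) passed the fold threshold against 8.99%. In Hermes 3A cells 5 of 7 passed with shBRG1 (background 56.9%, 28.2% upward and 28.6% downward) and 2 of 7 with shMITF (background 17.0%, 7.85% upward and 9.15% downward), none with a log2 fold change over 1 (background 9.26% and 7.39%). Plain library sizes moved the median log2 fold change of all genes from 0.053 to 0.40 with shBRG1 in 501Mel cells, and the calls from 8442 up and 8022 down to 11298 up and 5842 down, so that the falls there are smaller and the rises larger on that scale, but no member changed direction, and TFAP2A (-0.80) no longer reached the fold threshold. The same change of scaling moved the calls from 1776 up and 1862 down to 2297 and 1383 with shMITF in 501Mel cells, from 4862 and 4934 to 6389 and 3681 with shBRG1 in Hermes 3A cells, and from 1296 and 1510 to 1880 and 1129 with shMITF in Hermes 3A cells, with shifts of the median from 0.010 to 0.11, from 0.0093 to 0.11 and from 0.045 to 0.14.

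**Figure D2:**
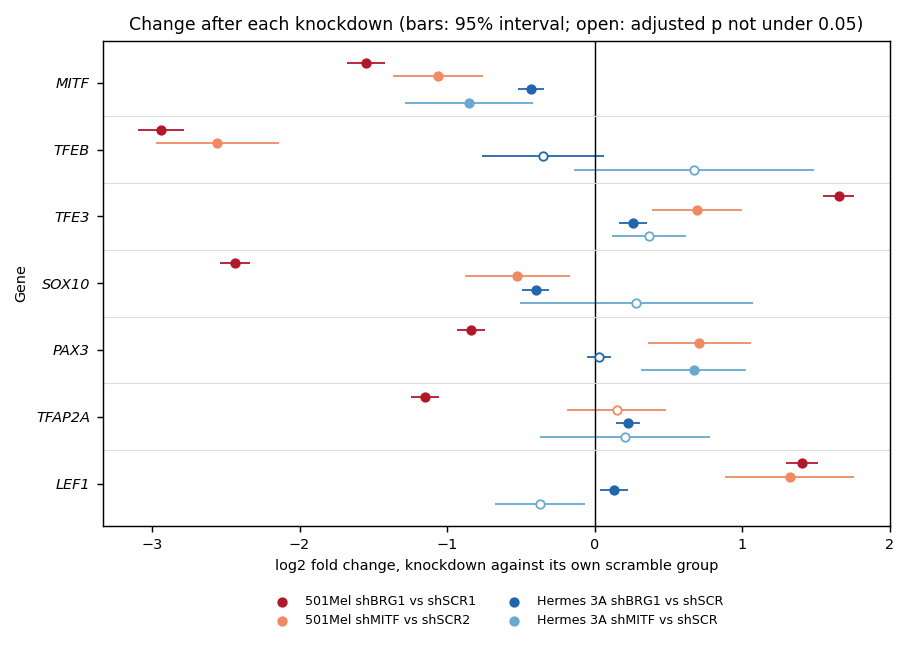
Log2 fold change of each gene in the 4 knockdown comparisons, each against its own scramble group, with 95% intervals as bars and open points where the adjusted p was not under 0.05. In 501Mel cells TFEB lies furthest to the left with both knockdowns, and the sign of PAX3 differs between shBRG1 (-0.84) and shMITF (0.71).

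SOX10, the HMG-box factor required for melanocyte survival and for MITF transcription, was the upstream factor that shBRG1 lowered most in 501Mel cells. It had 464, 471 and 496 CPM with shSCR1 and 88.1, 93.3 and 95.2 CPM with shBRG1, groups that did not overlap. Its log2 fold change was -2.44 ± 0.05 (adjusted p = 5.2e-22). SOX10 in Hermes 3A cells went from 623, 668 and 706 CPM with shSCR to 487, 498 and 515 CPM with shBRG1, also without overlap, a fall of -0.40 ± 0.045 on the log2 scale. With shMITF in 501Mel cells SOX10 had 340 and 473 CPM against 561 and 636 CPM with shSCR2 (log2 fold change -0.52 ± 0.16, adjusted p = 0.045). That call was lost without shSCR2 replicate 2 (-0.45, adjusted p = 0.15) and without shMITF replicate 2 (-0.33, adjusted p = 0.20), and with plain library sizes (-0.42, adjusted p = 0.093) or genes of at least 10 counts in every sample (-0.50, adjusted p = 0.052). The Hermes 3A shMITF replicates had 419, 1275 and 690 CPM, below, above and within the shSCR range, and the log2 fold change of 0.28 (95% interval -0.51 to 1.07) did not pass and turned to -0.24 without shMITF replicate 2.

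PAX3, a paired-box factor that works with SOX10 on the MITF promoter, moved in opposite directions with the knockdowns in 501Mel cells. It had 90.5, 93.7 and 95.6 CPM with shSCR1 and 53.6, 54.5 and 55.9 CPM with shBRG1, a fall of -0.84 ± 0.047. With shMITF it had 106 and 113 CPM against 57.9 and 79.4 CPM with shSCR2, a rise of 0.71 ± 0.15 (adjusted p = 0.013). It also rose with shMITF in Hermes 3A cells, from 146, 150 and 152 CPM to 198, 219 and 284 CPM (0.67 ± 0.16, adjusted p = 0.023). The groups did not overlap in either line. The call in Hermes 3A cells was lost when any of the shSCR replicates 1, 2 or 3 was left out (log2 fold changes of 0.67, 0.65 and 0.66, adjusted p = 0.11, 0.12 and 0.11). With shBRG1 in Hermes 3A cells PAX3 had 149 to 153 CPM, and the log2 fold change was 0.029, with a 95% interval of -0.051 to 0.11, but 0.13 with plain library sizes (adjusted p = 0.0046).

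LEF1, the nuclear partner of β-catenin, rose with both knockdowns in 501Mel cells. In Hermes 3A cells it rose slightly with shBRG1, and its estimate with shMITF was negative but did not pass. It had 49.3, 50.1 and 55.4 CPM with shSCR1 and 140, 142 and 149 CPM with shBRG1 (1.41 ± 0.052, adjusted p = 2.7e-17). With shMITF it had 138 and 199 CPM against 67.2 and 71.7 CPM with shSCR2 (1.32 ± 0.19, adjusted p = 0.0032). In both comparisons every knockdown sample lay above every control sample. LEF1 in Hermes 3A cells went from 63.1 to 69.6 CPM with shSCR to 69.7 to 73.1 CPM with shBRG1, a rise of 0.13 ± 0.046 (adjusted p = 0.019) that was lost without shSCR replicate 2 (0.10, adjusted p = 0.054), shBRG1 replicate 1 (0.11, adjusted p = 0.11) or shBRG1 replicate 3 (0.12, adjusted p = 0.093). With shMITF it had 43.5, 49.0 and 57.6 CPM, each below the shSCR range, with a log2 fold change of -0.37 ± 0.13 (adjusted p = 0.092) that passed without shMITF replicate 1 (-0.50, adjusted p = 0.012).

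TFAP2A, an AP-2 factor of neural crest and skin, fell in 501Mel cells with shBRG1. Its levels were 259, 265 and 278 CPM with shSCR1 and 124 to 127 CPM with shBRG1, a change of -1.15 ± 0.046 on the log2 scale (adjusted p = 1.1e-16). It rose with shBRG1 in Hermes 3A cells, from 348, 355 and 356 CPM to 397, 408 and 423 CPM (0.22 ± 0.039, adjusted p = 1.7e-05). Neither shMITF comparison passed for TFAP2A: the log2 fold change was 0.15 (95% interval -0.18 to 0.48) in 501Mel cells, where it turned to -0.053 without shSCR2 replicate 1, and 0.21 (-0.37 to 0.78) in Hermes 3A cells, where it turned to -0.19 without shMITF replicate 2.

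MITF itself fell in all 4 comparisons, most with shBRG1 in 501Mel cells, where it was not the target. It had 190, 209 and 218 CPM with shBRG1 there, against 513 to 609 CPM with shSCR1 (-1.55 ± 0.063). With shMITF it had 494 and 546 CPM in 501Mel cells, below both shSCR2 samples but overlapping the shSCR1 samples, and its log2 fold change against shSCR2 was -1.06 ± 0.14. With shSCR1 and shSCR2 pooled as the control that value became -0.58 (adjusted p = 0.41), SOX10 (-0.35) and PAX3 (0.42) lost their calls too, and TFAP2A turned to -0.091. MITF in Hermes 3A cells went from 1014, 1031 and 1119 CPM with shSCR to 766, 778 and 780 CPM with shBRG1 (-0.43 ± 0.044) and to 456, 544 and 719 CPM with shMITF (-0.85 ± 0.19, adjusted p = 0.019), without overlap. The shMITF call in Hermes 3A cells was lost when any of the shSCR replicates 1, 2 or 3 (-0.90, -0.88 and -0.82, adjusted p = 0.069, 0.085 and 0.096) or shMITF replicate 3 (-0.81, adjusted p = 0.052) was left out. When the 3 Hermes 3A groups were fitted together, which lets the spread of the shMITF samples into the shBRG1 comparison, the shBRG1 log2 fold changes kept their sizes, but only TFE3 of the 7 genes passed (adjusted p = 0.071 for MITF, 0.39 for SOX10, 0.52 for TFAP2A and 0.45 for LEF1). The same fit gave 4 genes that passed with shMITF, TFE3 (0.36) and LEF1 (-0.38) beside MITF and PAX3.

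Among the relatives of MITF, TFEB and TFE3 moved in opposite directions in 501Mel cells. TFEB had 4.36, 4.79 and 5.28 CPM with shBRG1 and 4.63 and 5.27 CPM with shMITF, levels that overlapped each other and lay far below both scramble groups. The log2 fold change of TFEB was -2.94 ± 0.075 with shBRG1 (adjusted p = 2.1e-20) and -2.56 ± 0.19 with shMITF (adjusted p = 1.9e-04), a fall of 7.66-fold and 5.89-fold. With either knockdown TFEB still exceeded every Hermes 3A sample, where its levels were 1.25 to 4.32 CPM. TFEB in Hermes 3A cells rested on 56 to 136 counts per sample, and neither comparison passed: the log2 fold change was -0.35 (95% interval -0.76 to 0.062) with shBRG1 and 0.67 (-0.14 to 1.49) with shMITF, which passed without shMITF replicate 1 (0.93, adjusted p = 0.047).

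TFE3 rose where TFEB fell. It had 47.2, 48.8 and 50.1 CPM with shSCR1 and 153, 159 and 168 CPM with shBRG1 in 501Mel cells, a log2 fold change of 1.65 ± 0.05, or 3.15-fold. With shMITF it had 86.7 and 98.8 CPM against 56.2 and 61.8 CPM with shSCR2 (0.69 ± 0.13, adjusted p = 0.0081). In the Hermes 3A samples it went from 59.8, 60.1 and 62.2 CPM with shSCR to 70.4, 71.6 and 74.1 CPM with shBRG1 (0.26 ± 0.045, adjusted p = 1.5e-05). With shMITF in Hermes 3A cells it had 74.5, 75.7 and 80.7 CPM and a log2 fold change of 0.37 ± 0.11 with an adjusted p of 0.0503, just short of the threshold, which it passed in DESeq2 (0.36, adjusted p = 0.019), with plain library sizes (0.46, adjusted p = 0.024), with genes of at least 10 counts in every sample (0.36, adjusted p = 0.0497) and without shMITF replicate 1 (0.37, adjusted p = 0.021) or 2 (0.39, adjusted p = 0.031). In all 4 comparisons every knockdown sample had more TFE3 than every sample of its own control.

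TFEC, a family member known mainly from macrophages, was barely detected. It had 0 to 15 counts per sample in the 19 samples and did not pass the filter on low counts in any comparison. The highest counts were with shBRG1, at 5 to 8 in 501Mel cells and 5 to 15 in Hermes 3A cells, against 0 to 2 with shSCR1 and 0 to 7 with shSCR. Without the filter the shBRG1 difference in 501Mel cells had an adjusted p of 0.01, and those in the other knockdown comparisons had 0.25 to 0.84. A count of 0 allows up to 3 counts, so that no fold change is given.

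Levels of different genes can be compared only per length of exon, and on that scale the makeup of the family changed with BRG1 silencing. As a share of the summed CPM per kilobase of merged exons of the 4 family genes, MITF made up 79.9% to 83.0% with shSCR1, 88.7% to 89.4% with shSCR2 and 90.6% to 91.6% with shSCR in Hermes 3A cells. With shBRG1 in 501Mel cells MITF was 39.7% to 44.4% and TFE3 54.4% to 58.8%, against 10.8% to 13.1% for TFE3 with shSCR1. TFE3 per MITF was 0.131 to 0.164 with shSCR1 and 1.23 to 1.48 with shBRG1, and went from 0.0874 to 0.0899 with shSCR2 to 0.295 to 0.303 with shMITF. The ratio in Hermes 3A cells was 0.0896 to 0.101 with shSCR, 0.154 to 0.16 with shBRG1 and 0.174 to 0.279 with shMITF, higher in every knockdown sample than in every control sample. Whether TFE3 exceeded MITF depends on the length used: with the median length of the coding transcripts, a choice made after seeing the data, the ratio with shBRG1 in 501Mel cells was 0.407 to 0.49, against 0.0434 to 0.0543 with shSCR1. TFEB made up 5.85% to 6.96% of the family with shSCR1 and 1.13% to 1.40% with shBRG1, and at most 0.646% in any Hermes 3A sample. These shares are of RNA counted on genes and say nothing of protein or of where it lies in the cell.

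**Figure D3:**
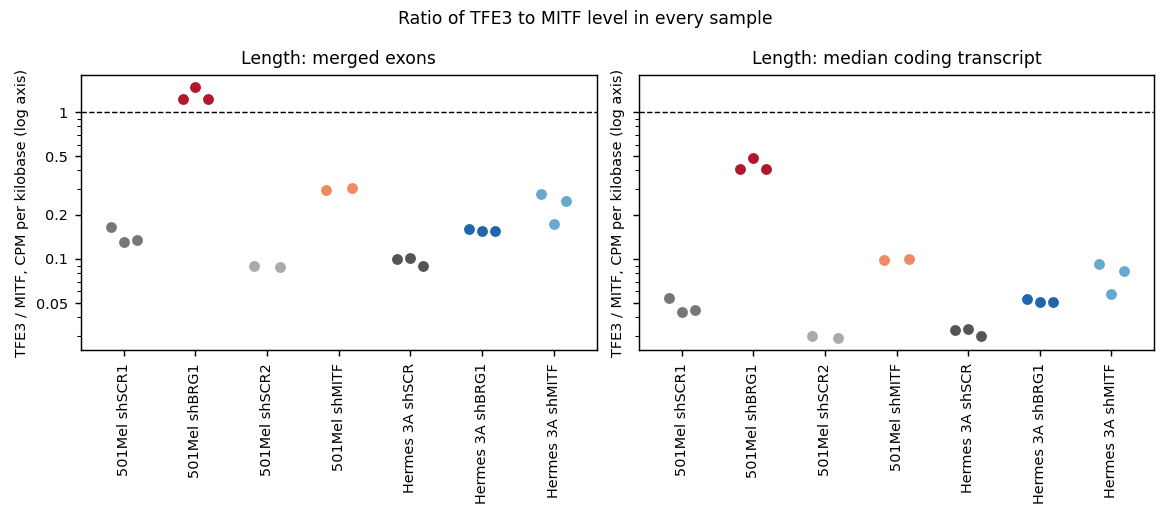
Ratio of TFE3 to MITF in CPM per kilobase (log axis) in each of the 19 samples by group, with the merged exon length on the left and the median length of coding transcripts on the right, and a dashed line at 1. The 3 shBRG1 samples of 501Mel cells lie highest in both panels, at 1.23 to 1.48 on the left and 0.407 to 0.49 on the right.

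The response to the same knockdown was then compared between the lines by testing the difference itself. All 7 genes tested responded differently to shBRG1 in 501Mel and in Hermes 3A cells, where 57.9% of all genes did. Of these, 5384 were higher and 7189 lower in 501Mel cells, or 7635 and 5359 with plain library sizes, a scaling that moved the median difference of all genes from -0.027 to 0.25 and that of no member across 0. The difference, 501Mel minus Hermes 3A, was -2.62 ± 0.18 for TFEB, -2.07 ± 0.066 for SOX10, -1.40 ± 0.059 for TFAP2A, -1.15 ± 0.079 for MITF, -0.90 ± 0.062 for PAX3, 1.25 ± 0.07 for LEF1 and 1.36 ± 0.066 for TFE3. SMARCA4, the targeted gene, differed by -0.0067 ± 0.07. For shMITF only TFEB (-3.24 ± 0.45, adjusted p = 0.003) and LEF1 (1.68 ± 0.24, adjusted p = 0.0036) passed, against 2.99% of all genes. For MITF itself the difference in its fall with shMITF was -0.22, with a 95% interval of -0.79 to 0.35, and the intervals for SOX10 (-1.89 to 0.26), PAX3 (-0.50 to 0.56), TFAP2A (-0.83 to 0.70) and TFE3 (-0.069 to 0.70) were too wide to show that the lines responded alike. The lines differ in medium as well as in transformation, and the part of each cannot be told apart.

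**Figure D4:**
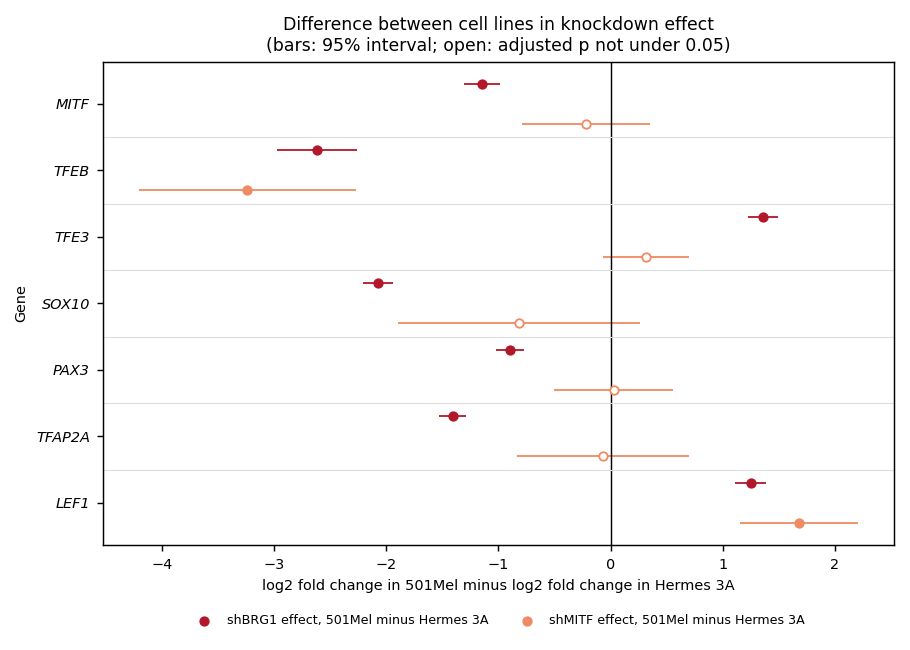
Difference between the lines in the log2 fold change of each gene, 501Mel minus Hermes 3A, for shBRG1 and for shMITF, with 95% intervals as bars and open points where the adjusted p was not under 0.05. For shBRG1 all 7 genes lie away from 0, and for shMITF TFEB (-3.24) and LEF1 (1.68) do.

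The knockdowns were compared with each other within each line. In 501Mel cells the effect of shBRG1 minus that of shMITF was -1.89 ± 0.15 for SOX10, -1.51 ± 0.14 for PAX3, -1.27 ± 0.14 for TFAP2A, 0.99 ± 0.11 for TFE3 and -0.46 ± 0.13 for MITF, and these 5 of 7 genes passed against 48.1% of all genes (4729 higher and 5975 lower, or 6346 and 4723 with plain library sizes, with a median of 0.015 or 0.24). MITF no longer passed with plain library sizes (-0.24, adjusted p = 0.14), without shBRG1 replicate 2 (-0.36, adjusted p = 0.052) or without shMITF replicate 2 (-0.33, adjusted p = 0.057). TFEB (-0.36, 95% interval -0.68 to -0.028, adjusted p = 0.07) and LEF1 (0.11, -0.28 to 0.50) did not pass, but TFEB did without shSCR2 replicate 1 (-0.44, adjusted p = 0.034) and LEF1 without shMITF replicate 2 (0.45, adjusted p = 0.0035), while LEF1 turned to -0.11 without shMITF replicate 1. Among Hermes 3A samples PAX3 was lower with shBRG1 than with shMITF (-0.64 ± 0.15, adjusted p = 0.031) and LEF1 higher (0.50 ± 0.13, adjusted p = 0.038), 2 of 7 genes against 14.3% of all genes, and both calls were lost without shBRG1 replicate 1 (-0.62 and 0.50), 2 (-0.65 and 0.53) or 3 (-0.64 and 0.50). The LEF1 call was lost without shMITF replicate 3 too (0.48, adjusted p = 0.073). Leaving out shMITF replicate 1 gave calls for TFEB (-1.29) and SOX10 (-0.99), and leaving out replicate 2 gave calls for MITF (0.63) and TFAP2A (0.42).

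The direct relatives of the lineage factors were examined as a list of 10 genes, of which 6 or 7 were detected well enough to test. SOX9 and SOX8, the other SOXE factors, moved apart with shBRG1 in 501Mel cells, where SOX9 rose (4.49 ± 0.43 on the log2 scale) and SOX8 fell (-3.63 ± 0.11). TFAP2E (1.49) also rose there, and TCF7 (-1.40), a relative of LEF1, fell. In all, 4 rose and 3 fell of 7, where 41.2% of all genes rose and 39.1% fell. The list's median log2 fold change was 0.19 against 0.053 for all genes. SOX9 was not among the genes tested with shMITF in 501Mel cells. Its level is not given here, so that its rise with shBRG1 need not mean high expression. TFAP2C was the only one of 6 that passed with shMITF in 501Mel cells, where it rose (1.25 ± 0.39) beside 10.0% of all genes, a call lost without shSCR2 replicate 2, when 1 gene fell, or shMITF replicate 1 (median of the list 0.15 against 0.010). With shBRG1 in Hermes 3A cells TFAP2C (1.24) and SOX9 (1.17) led 5 of 7 that rose, and TFAP2E (-0.48) and TCF7 (-0.46) fell, where 28.2% of all genes rose and 28.6% fell (median 0.56 against 0.0093). Without shSCR replicate 1 or shBRG1 replicate 3 the number that fell was 1. With shMITF in Hermes 3A cells SOX8 (1.99), TFAP2C (1.32), TCF7 (0.75) and TCF7L1 (0.74) were among 5 of 7 that rose, where 7.85% of all genes did, and none fell (median 0.87 against 0.045). That count was 2 without any of the shSCR replicates 1, 2 or 3, and 3 without shMITF replicate 3.

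Of 12 inputs and cofactors of MITF, 10 fell and 2 rose with shBRG1 in 501Mel cells, where 39.1% of all genes fell and 41.2% rose. The number that rose was 1 without any of the shSCR1 replicates 1, 2 or 3 and without shBRG1 replicate 2 or 3. The median log2 fold change was -1.22 against 0.053 for all genes. CTNNB1, which encodes β-catenin, fell (-2.25), as did KIT, the stem cell factor receptor (-2.24), while PIAS3, an inhibitor of MITF, rose (0.59). With shBRG1 in Hermes 3A cells 8 fell and 3 rose, beside 28.6% and 28.2% of all genes (median -0.47 against 0.0093). HINT1 (-1.31), a partner of MITF, and EDNRB (-0.80), the endothelin receptor, fell most there, and PIAS3 (0.43) and MC1R (0.22), the melanocortin receptor, rose most. With shMITF in 501Mel cells EDNRB (-0.72) and ATF1 (-0.70), a CREB family factor, fell and KIT (0.45) rose, beside 10.5% and 10.0% of all genes (median -0.12 against 0.010). None of the 12 passed without shMITF replicate 2, none rose without shSCR2 replicate 1 or shMITF replicate 1, and 1 fell without shSCR2 replicate 2. In Hermes 3A cells with shMITF none of the 12 passed in edgeR's test, where 17.0% of all genes did (median 0.15 against 0.045), and 3 passed without shMITF replicate 1, of which 2 rose, and 1 without shMITF replicate 2.

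Other regulators of melanocyte and melanoma state moved in both directions. Of 10 tested with shBRG1 in 501Mel cells 3 rose and 4 fell, where 41.2% of all genes rose and 39.1% fell, so that the list passed no more often than all genes did (80.3%; median -0.15 against 0.053). ZEB1, an EMT-associated repressor, rose (3.04 ± 0.41), as did GLI2 (0.54 ± 0.22). IRF4 (-3.43 ± 0.096), which activates TYR with MITF, and POU3F2 (-2.19), a neural POU factor also called BRN2, fell. When each library was left out in turn, 2 to 4 of the list rose and 4 to 6 fell. ZEB1 was not among the genes tested with shBRG1 in Hermes 3A cells. Levels of the list are not given here, so that a large fold change with a wide SE need not mean high expression. With shMITF in 501Mel cells 4 rose and 2 fell of 10, beside 10.0% and 10.5% of all genes (median 0.31 against 0.010). ZEB1 (4.46 ± 0.60) and GLI2 (1.82) rose most, and BHLHE40 (-0.77) and ZEB2 (-0.75) fell. Without shMITF replicate 1 the number that rose was 1, and without shSCR2 replicate 2 or shMITF replicate 2 the number that fell was 1. With shBRG1 in Hermes 3A cells 5 rose and 4 fell of 11, beside 28.2% and 28.6% of all genes (median 0.15 against 0.0093). TBX3 (1.67 ± 0.59) and GLI2 (0.90 ± 0.20) were the highest, and SOX2 (-1.81 ± 0.36) and IRF4 (-0.66) the lowest. The numbers that rose and fell were 4 to 5 and 3 to 4 when each library was left out in turn. With shMITF in Hermes 3A cells FOXD3 (1.33) and TBX2 (0.61) rose and SOX2 (-2.49) fell of 10, beside 7.85% and 9.15% of all genes (median 0.26 against 0.045). Without any of the shSCR replicates 1, 2 or 3 the number that rose was 1 and none fell.

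Known target genes of MITF mostly fell, except with shMITF in 501Mel cells, where 10 of 20 fell and 10 did not pass. Of 20 targets, 19 fell with shBRG1 in 501Mel cells, 10 with shMITF in 501Mel cells, 18 with shBRG1 in Hermes 3A cells and 16 with shMITF in Hermes 3A cells, against 39.1%, 10.5%, 28.6% and 9.15% of all genes. The medians of the list were -2.85, -0.95, -0.85 and -1.32 on the log2 scale, against 0.053, 0.010, 0.0093 and 0.045 for all genes. DCT, a melanin synthesis enzyme, was the lowest in the first 3 comparisons (-5.04, -2.82 and -3.24), followed by BCL2A1, an anti-apoptotic gene (-4.09), PPARGC1A, a regulator of mitochondria (-1.71), and BIRC7, an inhibitor of apoptosis (-2.88). In the last comparison SLC45A2, a melanosomal transporter (-3.14), and TRPM1, a cation channel (-2.99), were the lowest. At the other end of those that passed, CTSK, a cysteine protease gene, rose (0.64) and VAT1 fell (-1.55) with shBRG1 in 501Mel cells, PPARGC1A rose (0.93) and GPNMB fell (-0.51) with shBRG1 in Hermes 3A cells, and with shMITF the smallest falls were those of TYRP1 (-0.86) and PMEL (-0.91) in 501Mel and of TYRP1 (-0.77) and BCL2 (-0.87) in Hermes 3A cells. With each library left out in turn, the number that fell was 19 in the first comparison, 10 to 14 in the second, 18 to 19 in the third and 11 to 17 in the last.

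Known TFEB and TFE3 targets mostly did not rise with either knockdown in either line. TFE3 rose in 501Mel cells while TFEB and MITF fell with the same knockdowns, and the part of each in these changes was not tested. Of 14 lysosome and autophagy genes, 12 fell and 1 rose with shBRG1 in 501Mel cells, where 39.1% of all genes fell and 41.2% rose, with a median log2 fold change of -0.89 against 0.053 for all genes. WIPI1, an autophagy gene, fell (-2.76), LAMP1 (-0.19) was the least lowered of those that fell, and MAP1LC3B rose (0.32). With shMITF in 501Mel cells CTSB, which encodes cathepsin B, rose (2.37 ± 0.23), and UVRAG (-0.62) and GLA (-0.53) were among 3 that fell, beside 10.0% of all genes that rose and 10.5% that fell (median -0.23 against 0.010). With shBRG1 in Hermes 3A cells 11 of 14 fell, from GLA (-0.86) and CTSD (-0.73) to WIPI1 (-0.24) and MAP1LC3B (-0.23), and none rose, beside 28.6% and 28.2% of all genes (median -0.36 against 0.0093). With shMITF in Hermes 3A cells GLA (-0.88), MAP1LC3B (-0.64) and HEXA (-0.61) were among 7 that fell, and none rose, beside 9.15% and 7.85% of all genes (median -0.56 against 0.045). The number that fell was 1 without any of the shSCR replicates 1, 2 or 3, and 1 gene rose without shMITF replicate 3.

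The genes that hold TFEB and TFE3 in the cytoplasm when nutrients are plentiful, or release them through lysosomal calcium, were a list of 16 members of the FLCN, Rag, LAMTOR and mTORC1 groups with MCOLN1 and PPP3CB, and moved in both directions. FNIP2, a partner of FLCN, and MCOLN1, the lysosomal calcium channel, fell in all 4 comparisons. FNIP2 changed by -2.75 with shBRG1 and -0.87 with shMITF in 501Mel cells, and by -1.02 and -1.44 in Hermes 3A cells. MCOLN1 changed by -1.50 and -0.83 in 501Mel cells, and by -0.87 and -1.23 in Hermes 3A cells. The shMITF and shBRG1 comparisons of Hermes 3A cells share their control samples. LAMTOR1 and RRAGB, subunits of the lysosomal Rag machinery, rose most of the list with shBRG1 in both lines. LAMTOR1 rose by 1.44 in 501Mel and 0.54 in Hermes 3A cells, and RRAGB by 1.34 and 0.62. Other Rag and LAMTOR genes of the list moved in both directions with shBRG1 in each line. In all, 10 of 16 fell and 5 rose with shBRG1 in 501Mel cells, where 39.1% of all genes fell and 41.2% rose (median -0.32 against 0.053 for all genes). In Hermes 3A cells with shBRG1 7 fell and 5 rose, beside 28.6% and 28.2% of all genes (median -0.056 against 0.0093). With shMITF in 501Mel cells 3 fell and 1 rose, beside 10.5% and 10.0% of all genes (median -0.13 against 0.010), MTOR (-0.48) among the former and LAMTOR5 (0.44) the latter, and none rose without shSCR2 replicate 1, shMITF replicate 1 or shMITF replicate 2. With shMITF in Hermes 3A cells 4 fell and 1 rose, beside 9.15% and 7.85% of all genes (median -0.0087 against 0.045), RRAGD (-0.46) among the former and PPP3CB (0.47), a calcineurin subunit, the latter. Without any of the shSCR replicates 1, 2 or 3 there 2 fell and none rose, none rose without shMITF replicate 3, and 2 and 3 rose without shMITF replicates 1 and 2.

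**Figure D5:**
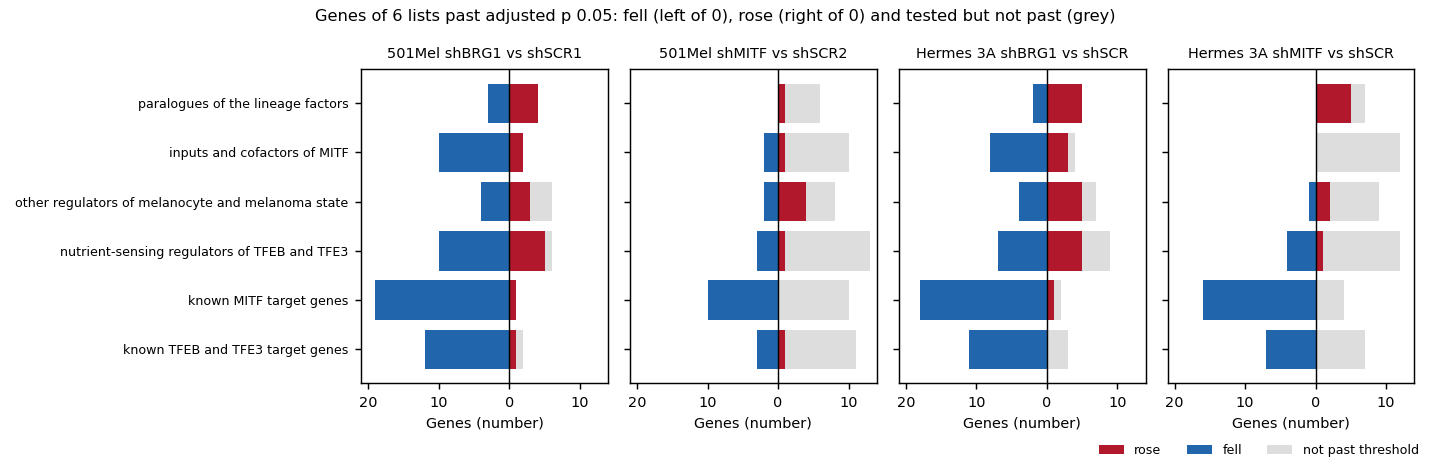
Number of genes of 6 lists that fell (blue, left of 0), rose (red, right of 0) or were tested without passing adjusted p 0.05 (grey) in the 4 knockdown comparisons. Known MITF target genes are the longest blue bar in each panel, with 19, 10, 18 and 16 of 20 genes.

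Across the 19 samples, the genes whose log2 CPM profile lay nearest to that of each factor were sought among 12532 genes, by the root mean square difference after centring. The nearest to MITF were TYMS (0.204) and CORO1C (0.215), against a spread of MITF about its own mean of 0.781. TFE3 (spread 0.539) lay nearest to TMEM184B (0.146), ZNF248 (0.162) and NAT9 (0.184). PAX3 (0.691) lay nearest to CORO7 (0.216), ZNF414 (0.217) and FAM161B (0.232), and TFAP2A (0.607) to PTOV1 (0.216), SMARCA2 (0.235) and ATOSA (0.235), SMARCA2 being the other SWI/SNF ATPase. LEF1 (0.630) lay nearest to TOMM34 (0.304), ZNF233 (0.305) and TSC22D1 (0.305), and SOX10 (1.02) to NHSL1 (0.344), KYAT3 (0.348) and RABL6 (0.353). TFEB, which varied most (1.72), lay furthest from its nearest genes, E2F8 (0.527), RAPGEF5 (0.694) and RNF144A (0.696). The samples share cell line and knockdown group, so that these distances describe the present samples and are not a test.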

How the data were processed

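The 19 samples fall into 7 groups, which the sample labels give. Total RNA was sequenced by the authors after removal of ribosomal RNA and normalisation with a duplex-specific nuclease, which lowers the most abundant cDNAs and so can compress the highest levels. The deposited values are unnormalised read counts, 1 file of Ensembl genes per replicate. The submitters' processing notes name CASAVA 1.8, TopHat 1.4.1, Bowtie 0.12.7 and hg19, and the counting program, annotation and strand setting are not given in the sources used here. The depth was 29158502 to 78857900 counts per sample, which makes counting error small except for TFEB in Hermes 3A cells and TFEC.

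Only the groups of a comparison entered its fit in edgeR (version 4.0.16, R 4.3.3), over the genes listed for all of its samples: TMM normalisation, filterByExpr by group, a robust quasi-likelihood fit and Benjamini-Hochberg adjustment over all genes tested. The thresholds were the study's, adjusted p under 0.05 and, for the fold, an absolute log2 fold change over 1. Scramble groups were compared in a fit of 8 samples, and differences of effects in a fit of the groups concerned. SE is the log2 fold change divided by the root of F, and 95% intervals are t-based. CPM values are normalised over all 19 samples together, so that their ratios differ slightly from the fitted fold changes. The methods were tested on simulated data. No library was a copy of another (chi-square per gene of at least 2.27 between replicates). The alternatives were DESeq2 1.42.0, plain library sizes, no filter, at least 10 counts in every sample, a replicate block, each replicate left out, all groups of a line in a common fit, pooled scramble groups and glmTreat. The second length for family shares and the list counts without each library were added after seeing the data.

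The genes and lists were chosen with earlier results of these data known. Named were the 8 genes, SMARCA4, overlapping genes, the lowest 2 and highest 2 past the threshold of each list and, for each gene tested, the 3 nearest profiles among genes with a mean of at least 100 counts. Some of the genes so chosen are not reported here. Of 44717 identifiers 40913 had a symbol. Start-site sequences are from RefSeq (GRCh38.p14), coordinates from GENCODE 29, and no hg19 coordinate was used. Figures were drawn with matplotlib 3.10.9.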

Additional observations from a re-analysis of the deposited data

Results flagged for a closer look

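The knockdown effects that differed between 501Mel and Hermes 3A cells in a test of the difference itself (edgeR, adjusted over all genes) are set out here as the log2 effect in 501Mel minus that in Hermes 3A. For shBRG1 these were TFEB (-2.62), SOX10 (-2.07), TFAP2A (-1.40), MITF (-1.15), PAX3 (-0.90), LEF1 (1.25) and TFE3 (1.36). With each library left out in turn, all 7 kept their direction and their call. TFAP2A is the gene for which both lines passed with opposite signs (-1.15 in 501Mel and 0.22 in Hermes 3A cells). For shMITF these were TFEB (-3.24) and LEF1 (1.68), with ranges of -3.51 to -2.81 and 1.38 to 1.93 when each library was left out. Hermes 3A TFEB rests on 56 to 136 counts per sample. No group had 4 or more samples, so that single samples were not tested for standing apart.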

How the results depend on the processing

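Over 77 results of single genes, 959 values were recomputed under the alternatives: 877 kept their direction and their side of the threshold, 41 kept the direction but lost the call, 24 gained a call and 17 changed sign. The cause of these changes was not tested. The 2 replicates of shSCR2 and shMITF in 501Mel cells and the spread of the Hermes 3A shMITF group limit the shMITF comparisons, depth limits TFEB in Hermes 3A cells, and TFEC could not be tested beyond the fit without a filter.

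With shSCR1 and shSCR2 pooled as the control, 3 genes passed with shMITF in 501Mel cells in place of 6, and TFAP2A turned to -0.091. In glmTreat 1 gene passed the fold threshold there in place of 3. With all groups of the line in a common fit, 1 gene passed with shBRG1 in Hermes 3A cells in place of 5, and 4 with shMITF in place of 2. With plain library sizes 4 genes differed between shSCR1 and shSCR (in place of 7), 5 between shSCR2 and shSCR (in place of 3), where TFE3 turned to 0.091, and 1 between shBRG1 and shMITF in Hermes 3A cells (in place of 2). Without a filter the line difference of the shMITF effect turned to -0.0036 for PAX3.

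When each library was left out in turn, the genes that passed with shMITF in Hermes 3A cells numbered 0 to 5, and 0 to 1 for the fold threshold, with 0 without any of the shSCR replicates and 5 without shMITF replicate 1. Those that differed between shBRG1 and shMITF in Hermes 3A cells numbered 0 to 4, with 0 without any of the shBRG1 replicates. Values that changed sign ranged, for TFAP2A, from -0.053 to 0.35 with shMITF in 501Mel cells, from -0.19 to 0.36 with shMITF in Hermes 3A cells, from -0.26 to 0.32 for the line difference of the shMITF effect and from -0.15 to 0.42 between shBRG1 and shMITF in Hermes 3A cells. SOX10 ranged from -0.24 to 0.58 with shMITF in Hermes 3A cells, TFE3 from -0.098 to 0.063 between shSCR2 and shSCR, PAX3 from -0.18 to 0.27 for the line difference of the shMITF effect, and LEF1 from -0.11 to 0.45 for shBRG1 minus shMITF in 501Mel cells.

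Replicate numbers recur across groups. Same-numbered samples hardly deviated together in the shBRG1 comparisons of 501Mel and Hermes 3A cells (mean correlation 0.0071 and 0.021) or with shMITF in Hermes 3A cells (-0.025). With shMITF in 501Mel cells the value was 0.13. The 2 replicates of a group there deviate from their mean in opposite directions, so that both pairs give the same value. It cannot show whether those samples were paired. With the replicate number as a block, 7, 6, 5 and 2 genes passed in the 4 knockdown comparisons, as without it, and 4 differed between shSCR2 and shSCR, SOX10 (-0.18, adjusted p = 0.026) being added to 3. The block turned the TFAP2A line difference of the shMITF effect to 0.017.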
